A study of Mus musculus with 6 samples.

Results

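The 40 genes described here encode the aminoacyl-tRNA synthetases of mouse cells and the scaffold proteins that hold some of them together, out of 55335 genes in the count tables. They were selected by symbol: 20 cytosolic synthetases, 16 mitochondrial synthetases whose symbols end in 2, and 3 scaffold genes (Aimp1, Aimp2 and Eef1e1). The remaining gene, Tarsl2, ends in 2 but encodes a threonyl-tRNA synthetase-like enzyme that is known from the cytosol, so it was kept apart from both classes. All 40 passed the filter on low counts.

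Aminoacyl-tRNA synthetases load each amino acid onto its matching tRNA and so supply protein synthesis with charged tRNAs. Mammalian cells keep one set of enzymes for the cytosol and another, also encoded in the nucleus, for the translation of mitochondrial DNA-encoded proteins. Several cytosolic enzymes sit with the scaffold proteins in a large multisynthetase complex, while the others work as free enzymes, and transcription of many cytosolic synthetase genes is known to be raised by the amino acid and endoplasmic reticulum stress factor ATF4.

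B16 cells, a mouse melanoma line, were transduced with a lentiviral CRISPR-Cas9 vector and selected with puromycin. The control group (n = 3) carried a scrambled guide directed at GFP and is labelled WT, and the IFNγR1KO group (n = 3) carried a guide against Ifngr1, which encodes the ligand-binding chain of the IFN-γ receptor. The cells were cultured untreated and seeded in triplicate, and the study used single IFNγR1KO clones, so a difference between the groups cannot be told apart from a difference between clones, and p-values measure only the spread between cultures. The question behind the design was which pathways, PI3K-Akt-mTOR among them, differ in cells that lack the receptor.

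Counts on genes reached 9402640 to 10579788 per control library and 6698956 to 7409479 per IFNγR1KO library, so that 1 read was worth more CPM (read counts scaled to a common library size with TMM factors) in the knockout libraries. Ifngr1 held 154, 144 and 172 counts in the control libraries and 80, 85 and 82 in the IFNγR1KO libraries. The groups did not overlap, with a log2 fold change of -0.47 (SE 0.16) and an adjusted p of 0.0729 by edgeR's quasi-likelihood test, adjusted over 13642 genes by the Benjamini-Hochberg method. An edit by the guide need not remove the transcript, so this level does not check the edit itself. All 7 melanocyte markers were expressed (Pmel, Mlana, Tyr, Tyrp1, Dct, Mitf, Sox10) and none passed the test, with a summed level of 31700 to 34700 CPM in controls and 27900 to 32800 CPM in IFNγR1KO. Markers of other cells were low: Cd3e, Itgam, Adgre1, Cdh5, Kdr and Lum were at 0 in every library, the endothelial list summed to at most 0.217 CPM, the epithelial list to at most 1.09 CPM, and the fibroblast list to 3.18 to 4.23 CPM in controls against 1.76 to 2.42 CPM in IFNγR1KO.

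Most cytosolic synthetase genes rose in IFNγR1KO cells, whereas most mitochondrial ones did not pass the test. Of the 20 cytosolic genes, 12 were called higher (adjusted p under 0.05, edgeR's quasi-likelihood test) and 0 lower, against 7.73% of all genes tested called higher and 7.62% called lower. One cytosolic gene (Hars) reached an unadjusted p under 0.05 in the lower direction, and DESeq2 and limma-voom also called 0 of them lower. Of the 16 mitochondrial genes, 2 were called higher (Ears2 and Nars2) and 0 lower. DESeq2 and limma-voom also called 0 of them lower, and 0 had an unadjusted p under 0.05 in that direction. The scaffold genes and Tarsl2 gave 0 calls in edgeR, DESeq2 and limma-voom, and 0 of these 4 genes reached an unadjusted p under 0.05.

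The median log2 fold change was 0.62 over the cytosolic class (range -0.32 to 1.09), 0.09 over the mitochondrial class (range -0.24 to 0.57) and -0.03 over the scaffold genes, beside a median of -0.001 over all genes tested. These medians are descriptions of the lists, and genes are not replicates. Together the cytosolic class took 0.318%, 0.363% and 0.389% of the counts in the control libraries and 0.569%, 0.549% and 0.680% in the IFNγR1KO libraries, a ratio of 1.68. The mitochondrial class took 0.0657%, 0.0706% and 0.0611% in controls and 0.0614%, 0.0668% and 0.0843% in IFNγR1KO, a ratio of 1.08, with overlapping groups. All levels are relative to the library total, so more of one transcript per cell and less of the rest cannot be told apart.

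**Figure D1:**
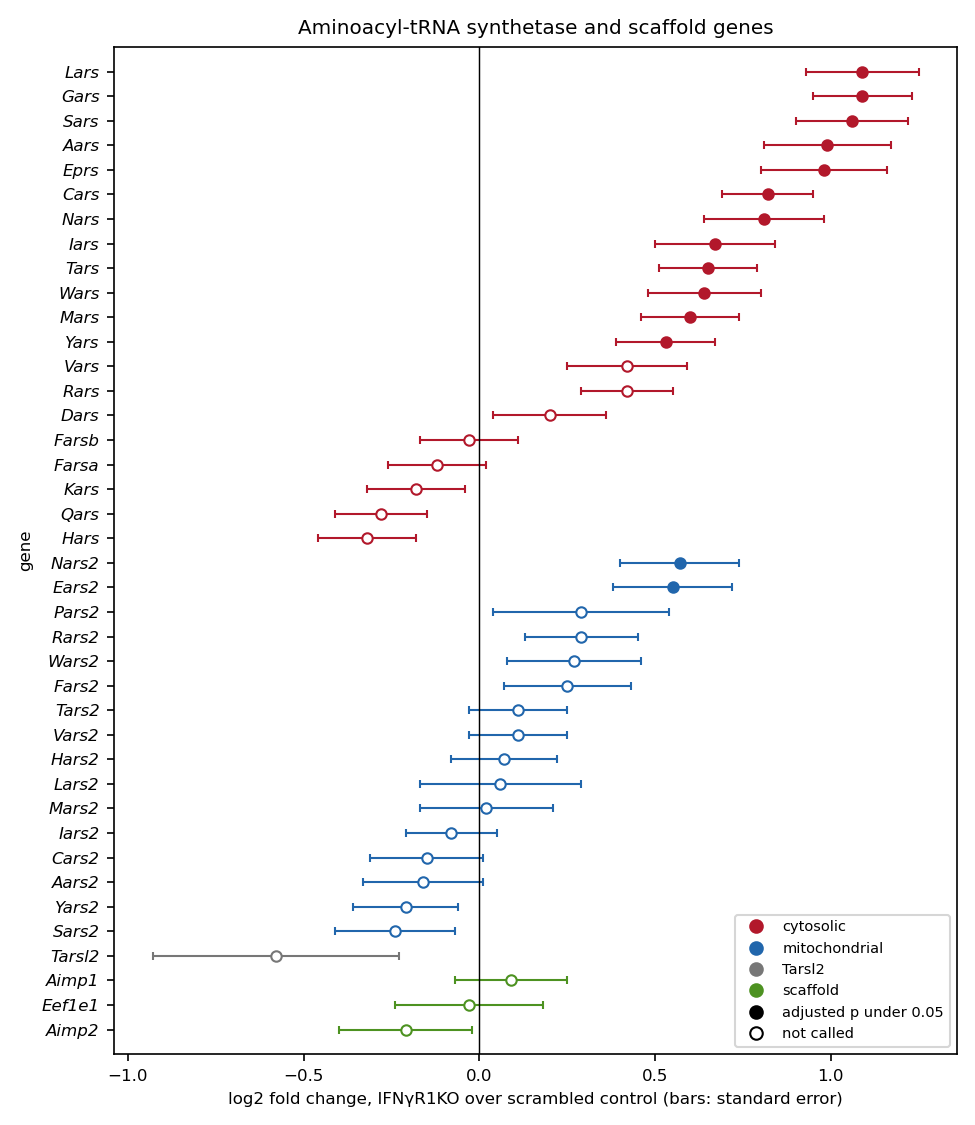
The log2 fold change of each gene, IFNγR1KO over scrambled control (n = 3 each), is plotted on the x axis with its standard error as a bar, and colour gives the class. The 12 filled cytosolic points lie between 0.53 and 1.09, the 2 filled mitochondrial points at 0.55 and 0.57, and open points did not pass an adjusted p of 0.05.

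Among the 12 cytosolic synthetases outside the multisynthetase complex, 8 were called higher and 0 lower, against 7.73% and 7.62% of all genes tested. Their median log2 fold change was 0.64. Gars, which loads glycine and whose gene also gives the mitochondrial enzyme, lies on chromosome 6 (GRCm38, 55038007 to 55079500, plus strand). It stood at 362, 419 and 409 CPM in the control libraries and at 845.5, 813 and 874 CPM in the IFNγR1KO libraries. Every knockout library was thus higher than every control library, and the 2.13-fold difference (log2 1.09, SE 0.14) had an adjusted p of 0.00042.

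Sars, the seryl-tRNA synthetase on chromosome 3 (108424865 to 108445209, minus strand), was at 378, 498 and 402 CPM in controls and at 931, 836 and 889.6 CPM in IFNγR1KO. The groups were well apart, although control library 2 stood above the other two. The log2 fold change was 1.06 (SE 0.16, adjusted p = 0.00092 by edgeR's quasi-likelihood test). Aars, which loads alanine, was at 258, 343 and 357 CPM in controls and at 575, 569 and 761 CPM in IFNγR1KO, with a log2 fold change of 0.99 (SE 0.18, adjusted p = 0.00275 by the same test). IFNγR1KO library 12 was the highest for Aars, and the lowest knockout library still exceeded the highest control. Cars, the cysteinyl-tRNA synthetase, was at 92.6, 100.4 and 82.8 CPM in controls and at 154, 162 and 171 CPM in IFNγR1KO. It spread little within either group, and its log2 fold change was 0.82 (SE 0.13, adjusted p = 0.00165).

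The other free enzymes that rose were those for asparagine (Nars), threonine (Tars), tryptophan (Wars) and tyrosine (Yars). Nars rose by 0.81 on the log2 scale (SE 0.17, adjusted p = 0.00666 by edgeR's quasi-likelihood test) and Tars by 0.65 (SE 0.14, adjusted p = 0.00947). Wars, a gene that IFN-γ is known to induce in many cells, was at 139.5, 180.2 and 192 CPM in controls and at 263.5, 229.8 and 302 CPM in IFNγR1KO. Its groups did not overlap, with a log2 fold change of 0.64 (SE 0.16, adjusted p = 0.0196). Yars rose by 0.53 (SE 0.14, adjusted p = 0.0259). The Wars call was lost without IFNγR1KO library 10 (adjusted p = 0.0596), control library 1 (adjusted p = 0.0732) or control library 2 (adjusted p = 0.0663), and the Yars call without IFNγR1KO library 10 (adjusted p = 0.0733), IFNγR1KO library 11 (adjusted p = 0.0609) or control library 1 (adjusted p = 0.0934).

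Promoter sequence is shown for the called cytosolic genes as a description. The short element TGATGNAA, which holds the letters shared by C/EBP-ATF response elements, was chosen with earlier results of these data known. Genes are split here by calls from the same data, so the counts are not a test. A cause of the calls was not tested. RefSeq promoter windows (GRCm38.p6, 250 bases before to 50 after the transcript start) were used for 30 of the 40 members. These include 7 of the 12 called cytosolic genes. Lars, Nars, Hars and Hars2 were left out of the search by their position, a limit not set on the background of all genes. The letters TGATGNAA, read on either strand, occurred in 5 of these 7 (Aars, Gars, Iars, Tars and Yars, and not Eprs or Sars), in 0 of the 5 cytosolic genes with a window that were not called, in 0 of 14 mitochondrial genes, in 0 of 3 scaffold genes and not in Tarsl2, whereas 4.51% of 27025 genes with a window held it. One match per gene is printed 5′ to 3′ on the strand of the gene, with the matching letters in capitals. Shown without capitals are the free ends of 2 cytosolic genes that were not called, Farsa and Kars, for contrast.
Gars (chr6:55037909-55038000, plus strand): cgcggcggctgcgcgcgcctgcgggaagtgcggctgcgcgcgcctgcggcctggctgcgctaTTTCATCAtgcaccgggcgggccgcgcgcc
Aars (chr8:111033840-111033869, plus strand): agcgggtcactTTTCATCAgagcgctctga
Tars (chr15:11399666-11399735, minus strand): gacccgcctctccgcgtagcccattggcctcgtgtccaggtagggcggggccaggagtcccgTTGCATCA
Iars (chr13:49682126-49682155, plus strand): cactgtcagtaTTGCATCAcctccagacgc
Yars (chr4:129189895-129189924, plus strand): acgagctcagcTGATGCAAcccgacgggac
Farsa (chr8:84856876-84856985, plus strand): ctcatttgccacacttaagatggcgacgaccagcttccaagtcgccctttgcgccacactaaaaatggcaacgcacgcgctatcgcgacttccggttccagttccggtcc
Kars (chr8:112011355-112011397, minus strand): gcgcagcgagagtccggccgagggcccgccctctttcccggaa

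Counted from the RefSeq start as base 1, the match began at base -30 in Gars, -15 in Tars, 4 in Yars, 8 in Iars and 10 in the Aars sequence shown. In all of these but Yars the letters ran on the strand opposite to the gene. The E-box letters CACGTG occurred in 3 of the same 7 called genes (Aars, Iars and Tars), in 1 of the 5 not called (Farsb) and in 1 of 14 mitochondrial genes (Ears2), against 8.09% of all genes with a window. Each match describes letters in a window of 300 bases and says nothing of binding, which was not measured.

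Of the 8 synthetases of the multisynthetase complex, 4 were called higher and 0 lower, against 7.73% and 7.62% of all genes tested. Their median log2 fold change was 0.51. Lars, which loads leucine and is also known as a leucine sensor upstream of mTORC1, was at 65.7, 80.3 and 93.7 CPM in controls and at 161, 161 and 188 CPM in IFNγR1KO. It had the largest change of the 40 genes together with Gars, at log2 1.09 (SE 0.16, adjusted p = 0.00076 by edgeR's quasi-likelihood test), and its groups did not overlap. Eprs, a fused enzyme for glutamate and proline, was at 185, 201 and 262.5 CPM in controls and at 398.5, 362 and 523 CPM in IFNγR1KO. IFNγR1KO library 12 stood highest and the log2 fold change was 0.98 (SE 0.18, adjusted p = 0.00342).

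The other complex members that rose were Iars, for isoleucine, by 0.67 (SE 0.17, adjusted p = 0.0191 by edgeR's quasi-likelihood test), and Mars, for methionine, by 0.60 (SE 0.14, adjusted p = 0.0132). The Iars call was lost without control library 1 (adjusted p = 0.0697) or control library 2 (adjusted p = 0.0848), and the Mars call without IFNγR1KO library 10 (adjusted p = 0.0759), IFNγR1KO library 11 (adjusted p = 0.0724) or control library 2 (adjusted p = 0.0563). Mars differed from most of its class in that IFNγR1KO library 12 was the lowest knockout library (282, 268.5 and 219.9 CPM, against 176, 170.1 and 161.5 CPM in controls). Mars shares 1.99% of its exonic bases with Ddit3 on the other strand, a stress gene whose log2 fold change was 3.13, and the part of this overlap in the Mars counts was not tested. Rars, the arginine enzyme, lay just outside the threshold (0.42, SE 0.13, adjusted p = 0.0513), with no overlap between the groups, and passed with DESeq2 (adjusted p = 0.0335) and limma-voom (adjusted p = 0.0492).

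Of the 12 called genes, 3 (Gars, Lars and Sars) also had a log2 fold change above 1, the limit the study used for differential expression, which 3.25% of all genes tested passed in the higher direction. Fold class did not separate the calls: 6 of 9 cytosolic class I enzymes (median 0.60) and 5 of 10 class II enzymes (median 0.42) were called higher. At this threshold 7.73% of all genes tested were called higher, and Eprs carries both folds. The CPM of 13 cytosolic genes did not overlap with all knockout libraries higher, and that of 2 did not overlap with all knockout libraries lower (Hars and Qars). Of all genes tested, 2176 did not overlap with the knockout higher (16%) and 2267 with it lower (16.6%).

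The 8 cytosolic synthetases that were not called spread on both sides of 0. The valine enzyme Vars had a log2 fold change of 0.42 (SE 0.17, adjusted p = 0.129 by edgeR's quasi-likelihood test). Dars, for aspartate, was at 224, 192 and 187.5 CPM in controls and at 265, 243 and 183 CPM in IFNγR1KO (0.20, SE 0.16, adjusted p = 0.471), with the lowest value of all in a knockout library. Kars, which loads lysine in the cytosol and in mitochondria, was at 167, 181.5 and 204.5 CPM in controls and at 154, 155 and 180.5 CPM in IFNγR1KO (-0.18, SE 0.14, adjusted p = 0.452). The groups overlapped for both genes.

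Farsa and Farsb encode the subunits of the cytosolic phenylalanyl-tRNA synthetase and both had small log2 fold changes. Farsa was at 61.9, 78.6 and 66.5 CPM in controls and at 59.4, 63.9 and 66.6 CPM in IFNγR1KO (-0.12, SE 0.14, adjusted p = 0.61 by edgeR's quasi-likelihood test). Farsb was at 84.5, 106.9 and 108.7 CPM in controls and at 92.8, 98.5 and 103.2 CPM in IFNγR1KO (-0.03, SE 0.14, adjusted p = 0.926), and its sign turned to 0.02 with library totals in place of TMM factors. The 3 knockout values lay inside the range of the controls for Farsb, and 2 of 3 did for Farsa. The glutamine enzyme Qars (-0.28, SE 0.13, adjusted p = 0.184) and the histidine enzyme Hars (-0.32, SE 0.14, adjusted p = 0.152) were the lowest of the class, and neither passed the test.

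**Figure D2:**
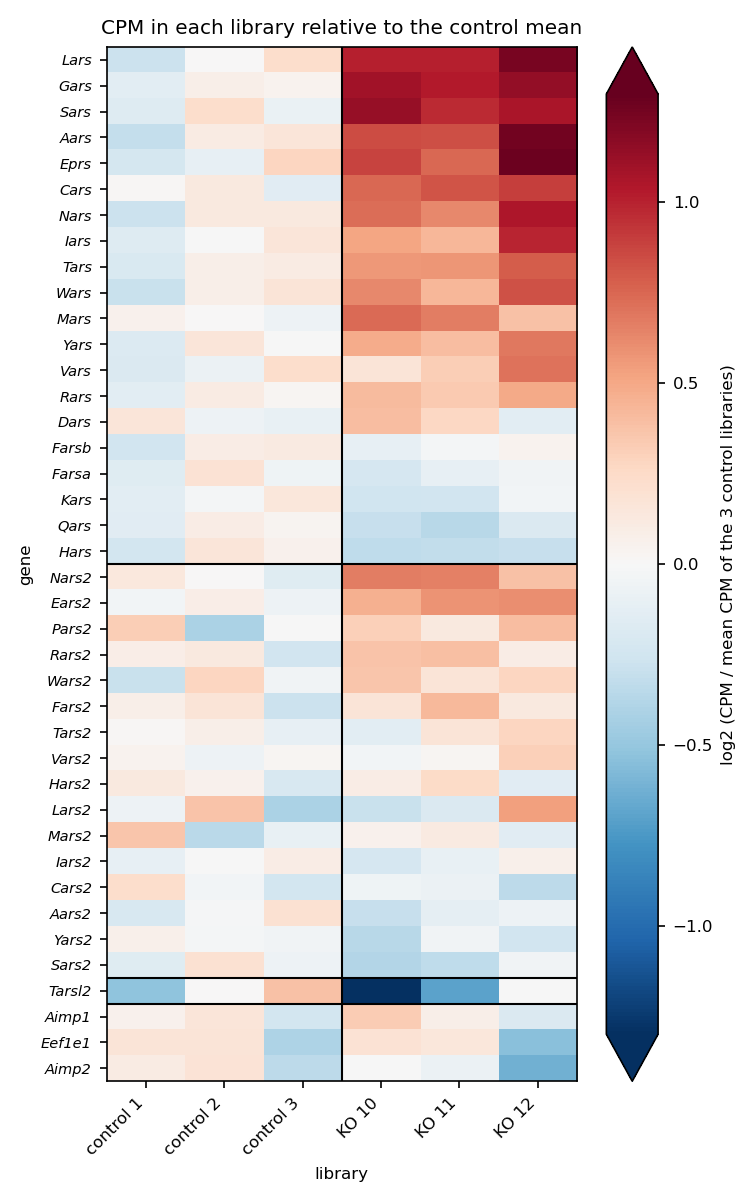
Colour gives the log2 ratio of the CPM in each library (x axis) to the mean CPM of the 3 control libraries, for each gene (y axis, grouped as cytosolic, mitochondrial, Tarsl2 and scaffold). The upper cytosolic genes are red in all 3 IFNγR1KO libraries, and most of them, though not Sars or Mars, are highest in library 12. The mitochondrial genes lie on both sides of the control mean, from Nars2 and Ears2 at the top to Yars2 and Sars2 at the bottom.

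The scaffold genes that hold the complex together did not pass the test. Aimp1 was at 139, 149 and 113 CPM in controls and at 168, 141 and 117 CPM in IFNγR1KO (log2 0.09, SE 0.16, adjusted p = 0.772 by edgeR's quasi-likelihood test). Aimp2 was at 76.0, 80.1 and 56.0 CPM in controls and at 70.6, 67.1 and 46.0 CPM in IFNγR1KO (-0.21, SE 0.19, adjusted p = 0.514). Eef1e1, also called Aimp3, was at 68.2, 68.2 and 46.0 CPM in controls and at 69.5, 67.5 and 41.6 CPM in IFNγR1KO (-0.03, SE 0.21, adjusted p = 0.949). Control library 3 and IFNγR1KO library 12 were the lowest of their groups for all 3 scaffold genes, whereas library 12 was the highest knockout library for 17 of 20 cytosolic synthetases. The sign of Eef1e1 turned to 0.02 with library totals in place of TMM factors, and 29.4% of the exonic bases of Aimp2 lie under Eif2ak1 on the other strand, whose reads cannot be told apart from its own unless counting used strand.

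Among the mitochondrial synthetases, Nars2 and Ears2 were the only genes called. Nars2, the asparagine enzyme on chromosome 7 (96951505 to 97064758, plus strand), was at 13.3, 12.1 and 10.8 CPM in controls and at 19.2, 19.1 and 15.7 CPM in IFNγR1KO, with a log2 fold change of 0.57 (SE 0.17, adjusted p = 0.0385 by edgeR's quasi-likelihood test). Ears2, the glutamate enzyme on chromosome 7 (122037213 to 122067263, minus strand), was at 8.68, 9.45 and 8.50 CPM in controls and at 12.2, 13.3 and 13.5 CPM in IFNγR1KO (0.55, SE 0.17, adjusted p = 0.0474). The groups did not overlap for either gene, which was the case for 2 of 16 mitochondrial genes with the knockout higher and 0 with it lower, no more than the 16% and 16.6% of all genes tested. DESeq2 called neither (adjusted p = 0.0628 for Nars2 and 0.114 for Ears2), and when single libraries were left out Nars2 was called in 1 of 6 fits, without IFNγR1KO library 12, and Ears2 in 0 of 6, where its adjusted p ran from 0.0840 to 0.147. Over the 6 fits the adjusted p of Nars2 ran from 0.0176 to 0.144, while the log2 fold changes stayed between 0.50 and 0.66 for Nars2 and between 0.52 and 0.59 for Ears2.

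The next highest mitochondrial genes overlapped between groups. Rars2, for arginine, was at 28.4, 29.2 and 22.5 CPM in controls and at 34.5, 35.1 and 28.7 CPM in IFNγR1KO (0.29, SE 0.16, adjusted p = 0.243 by edgeR's quasi-likelihood test). Pars2, for proline and the lowest in level of the class, was at 5.43, 3.28 and 4.35 CPM in controls and at 5.40, 4.74 and 5.76 CPM in IFNγR1KO (0.29, SE 0.25, adjusted p = 0.502). Both had a control library above a knockout library. Wars2 (0.27) and Fars2 (0.25) followed, with adjusted p of 0.386 and 0.396.

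At the lower end stood the mitochondrial enzymes for serine, tyrosine and alanine. Sars2 was at 16.4, 21.0 and 17.4 CPM in controls and at 14.1, 14.5 and 17.7 CPM in IFNγR1KO (-0.24, SE 0.17, adjusted p = 0.392 by edgeR's quasi-likelihood test). Yars2 was at 31.8, 29.9 and 29.5 CPM in controls and at 23.7, 29.5 and 25.6 CPM in IFNγR1KO (-0.21, SE 0.15, adjusted p = 0.385). Aars2 was at 16.9, 19.4 and 22.4 CPM in controls and at 15.9, 18.0 and 18.7 CPM in IFNγR1KO (-0.16, SE 0.17, adjusted p = 0.581). The cytosolic partners of these genes (Sars, Yars and Aars) were all called higher, while the mitochondrial groups overlapped.

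The other mitochondrial members lay within -0.15 and 0.11 on the log2 scale. Tars2 and Vars2 were both at 0.11, Hars2 at 0.07, Lars2 at 0.06, Mars2 at 0.02, Iars2 at -0.08 and Cars2 at -0.15, with adjusted p from 0.592 for Cars2 to 0.970 for Mars2. Lars2, the leucine enzyme, spread most between libraries of a group, at 217, 294 and 171 CPM in controls and 186, 199 and 328 CPM in IFNγR1KO. Without IFNγR1KO library 12 its log2 fold change was -0.24, and without control library 3 it was -0.10. With single libraries left out the sign also turned for Hars2, Mars2 and Vars2, so that no direction can be read for these genes.

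Promoter windows of mitochondrial genes are shown for a different element, the letters GCGCATGC found in sites of NRF1, a factor known to drive nuclear genes of mitochondrial proteins. Read on either strand, these letters occurred in 3 of 14 mitochondrial genes with a window (Rars2, Vars2 and Wars2) and in 0 of 12 cytosolic genes with one, against 3.05% of all genes with a window. Capitals mark the match, on the strand of the gene in GRCm38.p6 from RefSeq.
Vars2, with 2 matches (chr17:35667593-35667700, minus strand): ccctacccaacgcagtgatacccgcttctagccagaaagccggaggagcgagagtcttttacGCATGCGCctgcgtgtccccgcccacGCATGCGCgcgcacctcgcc
Wars2 (chr3:99140964-99141067, plus strand): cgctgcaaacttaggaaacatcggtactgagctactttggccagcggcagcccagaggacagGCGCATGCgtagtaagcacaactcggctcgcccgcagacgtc
Rars2 (chr4:34614895-34614924, plus strand): cggccccgtgtGCATGCGCactccacactt
None of these 3 genes passed the test.

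Tarsl2 was the lowest member per kb of annotated exon, at 0.649 CPM per kb in controls and 0.434 in IFNγR1KO. Without regard to length, Pars2 was about as low in controls (mean 4.35 CPM against 4.37 CPM for Tarsl2). Tarsl2 was at 3.04, 4.38 and 5.70 CPM in controls and at 1.71, 2.71 and 4.36 CPM in IFNγR1KO. The log2 fold change of -0.58 was the lowest of the 40 genes, but its standard error was 0.35 and its adjusted p 0.30 in edgeR's quasi-likelihood test. Its groups overlapped, since IFNγR1KO library 12 stood above control library 1, and its translated coding sequence was 70.7% identical to that of Tars. Placing Tarsl2 in the mitochondrial class moved the median of the class to 0.07. It could not change the 2 calls there, since Tarsl2 was not called.

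Levels were compared between genes per kilobase of annotated exon. In control cells the cytosolic synthetases had a median of 37.2 CPM per kb, from 11.9 for Eprs to 127 for Gars, and the mitochondrial ones a median of 5.36 CPM per kb, from 1.41 for Pars2 to 20.5 for Lars2. In IFNγR1KO cells the ranges were 14.0 to 271 CPM per kb (median 37.9) and 1.71 to 21.4 CPM per kb (median 4.67). Gars (127 ± 9.77 CPM per kb, SD, n = 3) and Sars (82.8 ± 12.3) led the cytosolic class in controls, and stood at 271 ± 9.86 and 172 ± 9.26 CPM per kb in IFNγR1KO. The next gene, Nars, was at 61.4 ± 9.51 CPM per kb in controls, and from Mars and Wars (both 49.4) down to Hars (36.3 ± 5.02) neighbouring genes in the order of levels differed by less than the SD of either, except Dars (46.2 ± 4.63) and Kars (41.3 ± 4.22). Among the mitochondrial genes Lars2 (20.5 ± 5.60 CPM per kb) and Iars2 (13.0 ± 0.915) came first, and Mars2, Nars2, Ears2 and Pars2 lay last at 1.41 to 1.92 CPM per kb. Exonic length is that of all annotated exons of a gene, so a gene with long exons that these cells do not use is set too low. Eprs, the lowest cytosolic gene in controls, has 18102 exonic bases, against 4906 bases in the transcript used for its protein. Which exons these cells use was not tested.

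**Figure D3:**
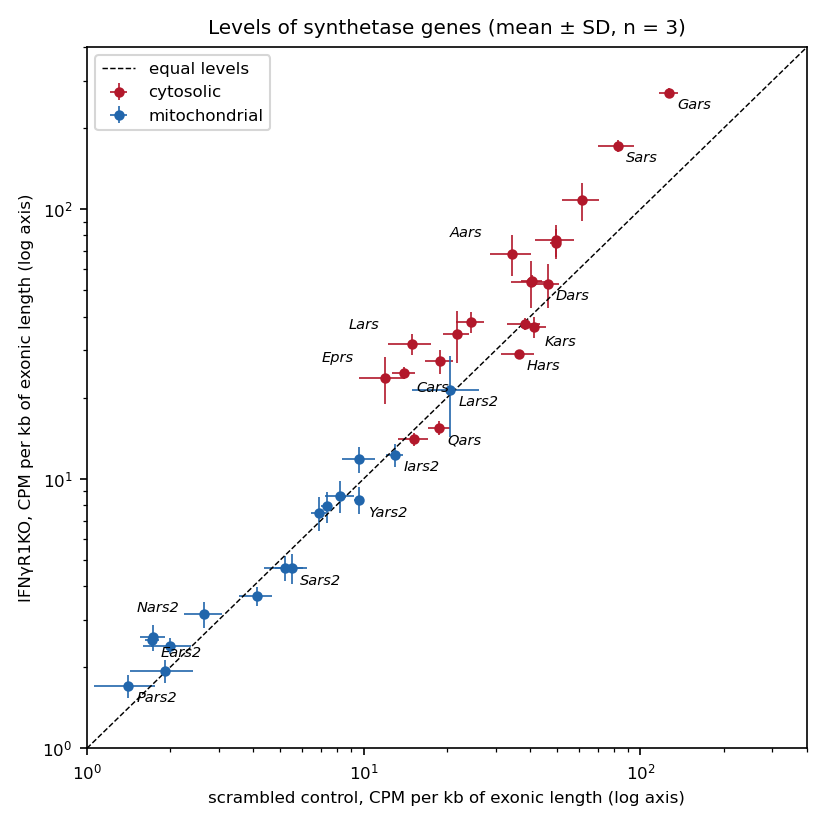
Mean CPM per kb of exonic length in scrambled control (x axis) is plotted against IFNγR1KO (y axis) on log axes, with bars giving the SD (n = 3) and a dashed line for equal levels. Gars rises from 127 to 271 and Sars from 82.8 to 172 CPM per kb, while most mitochondrial genes lie along the dashed line.

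For each amino acid with an enzyme in both compartments, the log2 ratio of the cytosolic to the mitochondrial transcript was taken within each library, giving 17 pairs over 16 amino acids (Eprs enters with Ears2 and Pars2, and Fars2 with both subunits). In 10 pairs all 3 IFNγR1KO ratios exceeded all 3 control ratios, in 0 pairs all were lower, and 7 overlapped. The cytosolic gene of each of these 10 pairs was already called higher, so the ratios largely restate those calls. Among single genes tested, 16% did not overlap with the knockout higher and 16.6% with it lower. No such share was computed for other pairs of genes. A two-sided exact permutation test gave p = 0.1 for each of the 10 pairs without overlap, the smallest that 3 against 3 libraries allow. After adjustment over the 17 pairs this was 0.17, so this design cannot reach 0.05.

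The serine pair differed most, with log2 ratios of Sars to Sars2 of 4.51, 4.55 and 4.51 in controls and 6.02, 5.83 and 5.63 in IFNγR1KO (difference 1.30). The alanine pair followed, at 3.91, 4.13 and 3.98 in controls and 5.16, 4.96 and 5.33 in IFNγR1KO (difference 1.14). For leucine, Lars to Lars2 was at -1.72, -1.87 and -0.87 in controls and -0.20, -0.30 and -0.80 in IFNγR1KO (difference 1.05). The nearest control and knockout values almost touched. Lars2 had more counts than Lars in every library, but its annotated exons are longer (11089 against 5368 bases). Per kb of exon, Lars2 was higher in controls (20.5 against 14.9 CPM) and Lars was higher in IFNγR1KO (31.7 against 21.4 CPM). The ratio was also higher without overlap for Cys, Tyr, Ile, Met, Thr, Trp and for Eprs to Pars2, by 0.36 to 0.97.

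The 7 overlapping pairs differed by -0.38 to 0.44. The asparagine pair, where Nars and Nars2 were both called higher, was at 4.02, 4.56 and 4.72 in controls and 4.51, 4.42 and 5.12 in IFNγR1KO (difference 0.25, exact permutation p = 0.6), and Eprs to Ears2 differed by 0.44 (exact permutation p = 0.2). The ratio was lower on average for histidine (-0.38) and for both phenylalanine subunits (-0.37 for Farsa and -0.27 for Farsb), each with overlapping groups.

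**Figure D4:**
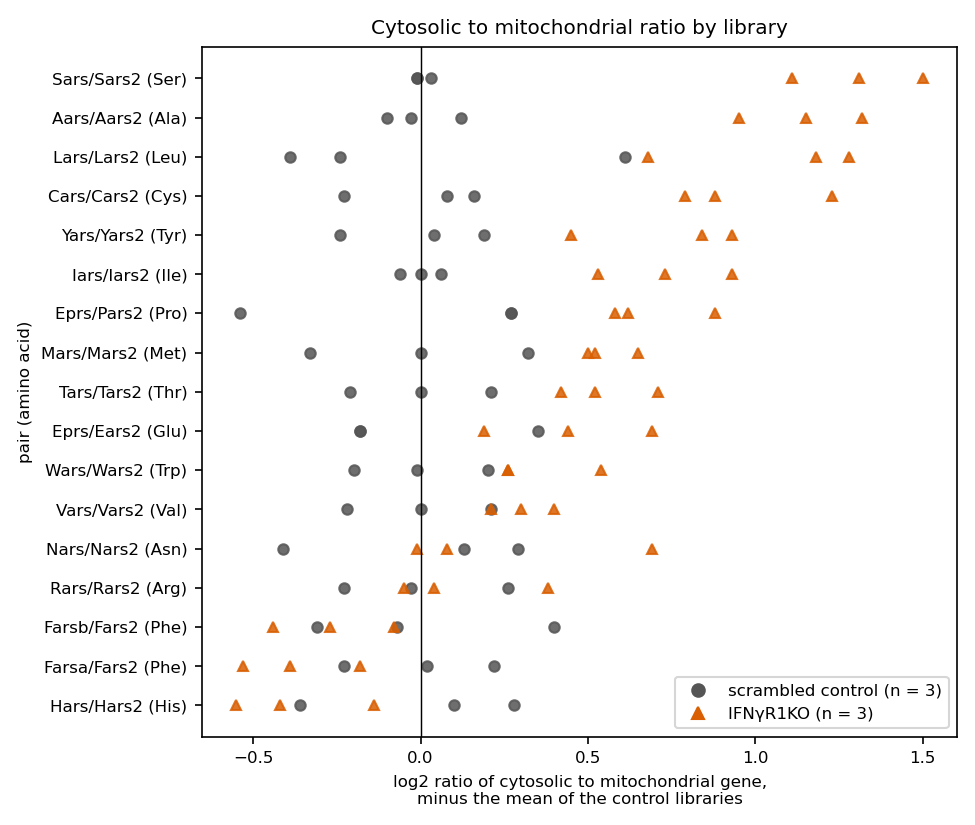
Each row is 1 pair of cytosolic and mitochondrial genes, and each point 1 library, placed on the x axis by its log2 ratio minus the mean of the control libraries (circles, scrambled control; triangles, IFNγR1KO; n = 3 each). Triangles lie to the right of all circles in 10 pairs, furthest for Sars/Sars2, and mix with circles in 7.

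The libraries of a group did not move as one. IFNγR1KO library 12 was the highest knockout library for 10 of the 12 called cytosolic genes, and control library 1 was the lowest control for 17 of the 20 cytosolic genes. The median log2 ratio of the cytosolic class to its control mean was 0.54, 0.44 and 0.76 in IFNγR1KO libraries 10, 11 and 12, and -0.16, 0.10 and 0.09 in control libraries 1, 2 and 3. Without library 12 the cytosolic class still had 12 calls and a median of 0.50, and 9 calls remained in number without IFNγR1KO library 10, control library 1 or control library 2. Aars, Cars, Eprs, Gars, Lars, Nars, Sars and Tars were called in all 6 fits that left out 1 library and in every other alternative fit of the genes.

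Some members share bases with other genes, and the strand setting of the counting is not given in the sources used here. Besides Aimp2, exons of genes on the other strand cover 24.2% of the exonic bases of Iars2 and 10.7% of those of Fars2, and Hars2, head to head with Hars, covers 7.97% of the exonic bases of Hars. On the same strand 14.3% of the exonic bases of Aars are also annotated to Exosc6, and reads there count for neither gene when ambiguous. No cytosolic and mitochondrial partner shared a stretch of 50 bases, although the translated coding sequences were 70.5% identical for Hars and Hars2 and 55.2% for Tars and Tars2. No called member had over 10% of its exonic bases under the other strand. Removing such members, Iars2 and Fars2 among the synthetases, therefore could not change the 12 cytosolic and 2 mitochondrial calls.

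Other genes of the translation pathway were counted as lists. Of 79 mitochondrial ribosomal proteins tested, 1 was called higher and 3 lower (median log2 fold change -0.02), among them Mrps18b (0.64, SE 0.15, adjusted p = 0.0141 by edgeR's quasi-likelihood test), Mrpl16 (-0.93, SE 0.15, adjusted p = 0.00181) and Mrpl18 (-0.82, SE 0.16, adjusted p = 0.00412). The number of calls in this list was 8 without IFNγR1KO library 12 or control library 3, and 2 without IFNγR1KO library 10 or control library 2. Of 14 mitochondrial translation factors 0 were called by edgeR, DESeq2 or limma-voom, with 1 at an unadjusted p under 0.05, and 3 were called without IFNγR1KO library 12. Both shares lay at or below the 7.73% and 7.62% of all genes tested.

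Of 15 genes for mitochondrial tRNA processing and modification, 2 were called higher and 0 lower (median 0.21), where 7.73% and 7.62% of all genes tested were. They were Nsun3, a methyltransferase for mitochondrial methionine tRNA (0.88, SE 0.16, adjusted p = 0.00369 by edgeR's quasi-likelihood test), and Trit1, which adds an isopentenyl group to tRNAs (0.70, SE 0.21, adjusted p = 0.0382). No gene of this list had an unadjusted p under 0.05 in the lower direction. The calls numbered 4 without IFNγR1KO library 12 and 1 without any one of the other libraries. Of 8 genes for proofreading of charged tRNAs and selenocysteine tRNA, 1 was called higher and 0 lower, beside the same 7.73% and 7.62%, with none at an unadjusted p under 0.05 in the lower direction. This was Sepsecs, the last enzyme of selenocysteine tRNA synthesis (0.55, SE 0.15, adjusted p = 0.0286), and the list gave 2 calls without IFNγR1KO library 12 and 0 without IFNγR1KO library 10 or 11 or control library 1 or 2.

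In the cytosol, 2 of 12 elongation factors and related genes were called higher and 1 lower (median 0.04), where 7.73% and 7.62% of all genes tested were. Gtpbp2, a GTPase for stalled ribosomes, went from 59.1 ± 5.46 to 169 ± 19.6 CPM (SD, n = 3; 1.52, SE 0.14, adjusted p = 3.7e-05 by edgeR's quasi-likelihood test), Eef2k, the kinase of elongation factor eEF2, rose by 0.95 (SE 0.18, adjusted p = 0.00354), and Eif5a2 fell by 1.08 (SE 0.17, adjusted p = 0.00158). Of 39 genes for cytosolic tRNA processing and export, 3 were called higher and 1 lower (median 0.02), no more than the 7.73% and 7.62% of all genes tested. Xpot, the exportin that carries tRNA out of the nucleus, went from 130 ± 6.76 to 275 ± 17.3 CPM (1.08, SE 0.13, adjusted p = 0.00027), a difference of the size of that of Gars. Dus2, which makes dihydrouridine in tRNA, rose by 0.96 (SE 0.17, adjusted p = 0.00279), and Tsen34, a subunit of the tRNA splicing endonuclease, fell by 0.56 (SE 0.15, adjusted p = 0.0247). This list had 7 calls without IFNγR1KO library 12 and 2 without IFNγR1KO library 11 or control library 2.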

How the data were processed

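RNA of 3 scrambled control and 3 IFNγR1KO cultures was poly(A)-selected and sequenced in paired ends. The authors deposited unnormalized counts per gene, one table per library. The submitters' processing notes and the study's methods name STAR 2.7.5a for alignment to GRCm38 and HTSeq 0.11.2 for counting, while the annotation release and the strand setting are not given in the sources used here. Reads on no gene (46.9% to 47.7%), ambiguous reads and reads without a unique position (3.76% to 4.61%) stayed out of library sizes and tests.

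Groups and library numbers came from the sample labels. Symbols, positions and exonic lengths were taken from GENCODE M21, which holds 55154 of the 55335 identifiers. In R 4.3.3, edgeR 4.0.16 was run over all genes (filterByExpr with minimum count 10 and minimum total 15, TMM, quasi-likelihood test, Benjamini-Hochberg adjustment), and a call was an adjusted p under 0.05. CPM values used TMM factors, and 1 count was worth 0.0966 to 0.109 CPM in controls and 0.135 to 0.142 CPM in IFNγR1KO. Log ratios within a library used a prior count of 2 and an exact permutation test (SciPy 1.17.1). The test was checked on simulated counts. Alternatives were DESeq2 1.42.0, limma-voom (limma 3.58.1), RLE factors, library totals, 2 other filters, thinning to the smallest total, other thresholds and class definitions, and leaving out each library in turn. Replicates differed beyond counting error (chi-square per degree of freedom 2.74 to 24.7), so none was a copy.

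The 40 genes, the pathway lists and the promoter letters were chosen with earlier results of these data known. Values by library are given for the 6 cytosolic genes with the largest and the 4 with the smallest absolute change, the 3 highest and 3 lowest mitochondrial genes, Tarsl2 and the scaffold genes. From each pathway list up to 2 called genes per direction are named, by smallest adjusted p. Library values of Wars, Mars, Pars2 and Lars2 were added after they were seen. Sequences came from the RefSeq promoter table (GRCm38.p6), and protein identities from global alignment (Biopython 1.88) of translated GENCODE transcripts. The promoter search left out Lars, Nars, Hars and Hars2 by their position, whereas the background of all genes with a window was not filtered in this way. One cell type marker and one promoter match are not reported here.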

Additional observations from a re-analysis of the deposited data

How the results depend on the processing

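No paired analysis was possible because the control libraries are numbered 1, 2 and 3 and the IFNγR1KO libraries 10, 11 and 12, so no number is shared. Of the 14 called genes, 8 were called in every alternative fit, and none of the 14 changed direction. With a log2 fold change above 1 also required, the cytosolic class kept 3 calls and the mitochondrial class 0. The mitochondrial calls numbered 0 with DESeq2 or an adjusted p under 0.01, 1 with every gene that had a count or after thinning to the smallest total, and 0 to 1 with single libraries left out. With every gene that had a count, 1 mitochondrial translation factor was called, and with DESeq2, 1 gene of mitochondrial tRNA processing. Leaving out single libraries moved the calls from 9 to 12 for cytosolic synthetases, 1028 to 2824 for all genes, 2 to 8 for mitochondrial ribosomal proteins, 0 to 3 for mitochondrial translation factors, 1 to 4 for mitochondrial tRNA processing, 0 to 2 for proofreading and 2 to 7 for cytosolic tRNA processing, and the mitochondrial median from 0.02 to 0.19. Signs turned only for genes with small changes. Farsb (0.02) and Eef1e1 (0.02) did so with library totals, and Mars2 with every gene that had a count (-0.01) and after thinning (-0.05). With single libraries left out, the log2 fold change ran from -0.14 to 0.04 for Farsb, -0.02 to 0.17 for Hars2, -0.24 to 0.29 for Lars2, -0.13 to 0.23 for Mars2, -0.01 to 0.18 for Vars2, -0.05 to 0.21 for Aimp1 and -0.20 to 0.17 for Eef1e1. The cause of these changes was not tested. Tarsl2, Pars2 and Ears2 rest on few reads, with levels under 15 CPM in every library.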

Other observations

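Lars2 stood apart among the mitochondrial synthetases for its spread between libraries. Among genes looked up after this had been seen, Gm42418 spread in a similar order and Gm26917 did not. Lars2 was at 217, 294 and 171 CPM in controls and at 186, 199 and 328 CPM in IFNγR1KO, and Gm42418 at 3961, 5004 and 2024 CPM in controls and at 3573, 4015 and 4549 CPM in IFNγR1KO. Both were highest in control library 2 and lowest in control library 3 among controls, and lowest in library 10 and highest in library 12 among IFNγR1KO. Neither passed edgeR's quasi-likelihood test (log2 fold change 0.06, SE 0.23, adjusted p = 0.892 for Lars2, and 0.14, SE 0.27, adjusted p = 0.778 for Gm42418). Gm26917 was at 99.98, 83.87 and 55.76 CPM in controls and at 78.85, 73.02 and 64.39 CPM in IFNγR1KO. It was also lowest in control library 3, but it was highest in control library 1 and lowest in IFNγR1KO library 12. The part of Gm42418 in the Lars2 counts was not tested.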
